A study of Caenorhabditis elegans with 6 samples.

Results

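The genes described here are chemoreceptor genes of the Sra and Srg superfamilies and of the solo families of Caenorhabditis elegans that were detected by RNA-seq in dopamine neurons or serotonin neurons. They were selected on their measured level and chosen by symbol: a gene belonged when it was of 1 of 15 families (sra, srab, srb and sre in Sra; srg, srt, sru, srv, srx and srxa in Srg; srbc, srsx, srw, srz and srr among the solo families) and when 3 or more of the 6 libraries held a deposited normalized count of 10 or higher. This left 135 of the 722 genes of these families in the tables, out of 47063 genes in all. There were 3 libraries of dopamine neurons and 3 of serotonin neurons, from embryos and larvae of strain FQ939, with the genotype given as wild type in both groups. The labels do not state which reporters the strain carries or that replicates were separate cultures, so a p-value weighs a difference against the scatter of these libraries alone, which may be technical.

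Chemoreceptors of this kind are G protein-coupled receptors. Many are carried to the cilia of sensory neurons, where a bound odorant or pheromone acts through a G protein on a cyclic nucleotide-gated or a TRPV channel. In C. elegans a chemosensory neuron usually expresses several such receptors, most have no known ligand, and a few respond to ascarosides, the pheromones of the worm. The dopamine neurons are ciliated mechanosensory cells. Among the serotonin neurons, ADF is a ciliated chemosensory cell of the amphid, the main chemosensory organ, and NSM is a secretory cell of the pharynx.

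The libraries held 20418663 to 31559049 reads assigned to genes, as recovered from the normalized counts, and 1 read was worth 0.393 to 1.23 normalized counts. Dopamine 1 and serotonin 3 were rich in ribosomal RNA, with 40.9% and 41.5% of their reads, while the 4 remaining libraries had 7.53% to 13.7%. The 4 dopamine markers were higher in dopamine neurons. Of the 4 serotonin markers tph-1 and mod-5, for serotonin synthesis and reuptake, were lower in dopamine neurons, and lim-4 and unc-86 did not pass. Pharyngeal muscle markers summed to 379 to 910 normalized counts in dopamine libraries and to 36597 to 71831 in serotonin libraries, and 4 of 4 passed. The 5 markers found for the ASH and ADL nociceptors summed to 203 to 419 in dopamine libraries and to 1494 to 2481 in serotonin libraries. The serotonin sums were led by ocr-2, at 1016 to 1780. Of the 5, ocr-2 and gpa-13 passed, and osm-10, gpa-11 and nhr-79 did not and overlapped between groups. The 6 markers of the ASI, ASJ and ASK pheromone neurons summed to 549 to 1034 in dopamine and 370 to 746 in serotonin libraries. That sum was led by daf-7, and the list median was -0.38. Of the 5 tested, ssu-1 was called higher in dopamine neurons and the others did not pass. The gene ssu-1 had 77.1, 80.7 and 18.7 normalized counts in dopamine and 7.47, 1.5 and 1.23 in serotonin libraries. It reached 10 in dopamine libraries only, so it entered through its high group and its call tests nothing. The 6 markers of the AWA, AWB and AWC olfactory neurons summed to 144 to 286 in dopamine and 316 to 507 in serotonin libraries, with str-1 and str-2 below 10 in every library. That sum was led by ceh-37, and 0 of the 3 tested passed. Of the 4 body wall muscle markers unc-54 was higher and unc-15 lower in dopamine neurons, and the list median was -0.15 on the log2 scale. The amphid glia markers summed to 2909 to 3693 in dopamine and 3091 to 6481 in serotonin libraries, a sum led by lit-1, and 0 of the 3 tested passed. The part of such cells in the receptor values was not tested, and fewer cells of a type and less RNA per cell cannot be told apart in these bulk samples.

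Detection was uneven between families. Of the 124 Sra genes 29 were detected, of the 309 Srg genes 65, and of the 289 solo genes 41. The small srr family stood highest with 6 of 9 genes, followed by srab with 7 of 23. The srbc family was lowest with 5 of 71 genes, next to srw with 9 of 109 and sru with 4 of 39. Of the 587 genes that were not detected, 28 had no read in any library and 93 reached 10 in 2 libraries. The rule divides a continuum: just inside it, srv-32, srx-119 and srsx-7 had a value of 10 normalized counts in the library that decided, and just outside it srsx-16, srx-59 and sre-48 had 9.83.

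More of these genes were seen in serotonin libraries. The level of 10 was reached by 111, 54 and 47 of the 135 genes in dopamine 1, 2 and 3, and by 130, 120 and 90 genes in serotonin 1, 2 and 3. Dopamine 1 thus lay above serotonin 3, so the groups overlap in this count. Among all 722 family genes, 70 reached 10 in 2 or more dopamine libraries and 169 in 2 or more serotonin libraries. Of the 135 genes, 22 reached 10 in all 6 libraries, 15 reached it in serotonin libraries only and 0 in dopamine libraries only. Reads of the 135 genes made up 0.0756%, 0.05% and 0.038% of protein-coding reads in dopamine 1, 2 and 3, and 0.163%, 0.107% and 0.0919% in serotonin 1, 2 and 3. With srr-4, the most abundant gene, left out, the summed level was 6444, 4098 and 4193 normalized counts in dopamine 1, 2 and 3, and 10175, 7370 and 6489 in serotonin 1, 2 and 3. The groups did not overlap in that sum, but dopamine 1 and serotonin 3 lay close together.

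**Figure D1:**
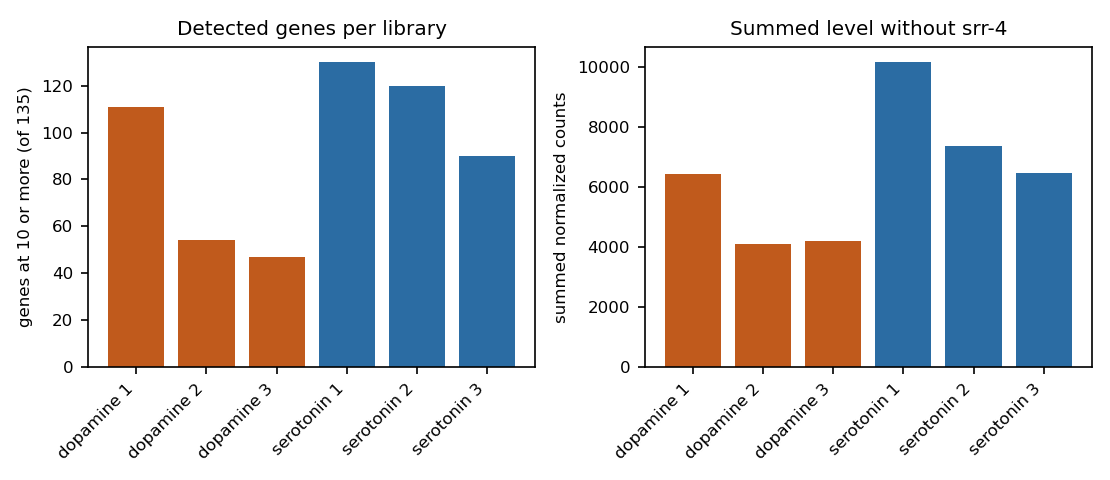
Left, the number of the 135 detected chemoreceptor genes with at least 10 normalized counts in each library; right, the summed normalized counts of the 134 genes other than srr-4, with dopamine libraries in orange and serotonin libraries in blue. Dopamine 1, with 111 genes, stands apart from dopamine 2 and 3, with 54 and 47.

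Most of these genes were low. FPKM scales reads by gene length, so levels can be compared between genes. Between libraries the deposited FPKM values kept the ratios of the normalized counts within rounding, as in srr-4 and srab-14. FPKM is thus no separate scaling of the libraries. Its median over the 135 genes was 0.935, where the 13156 protein-coding genes tested had 5.63. A mean FPKM of 10 or higher was reached by 6 genes and of 1 or higher by 64. By normalized count, 105 of the 135 genes had a mean under 50.

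The gene srr-4 (WBGene00005655, chromosome V, 5019224 to 5022363 in WBcel235, as are all positions here) was first in both cell types. It measured 61.6, 54.2 and 28.8 FPKM in dopamine 1, 2 and 3, and 193, 162 and 166 FPKM in serotonin 1, 2 and 3. Its reads were 18.2% to 30% of those of the 135 genes in dopamine libraries and 38% to 45.3% in serotonin libraries. Next by mean FPKM came srt-42 (16.1 ± 10.1 in dopamine and 37.6 ± 9.55 in serotonin neurons; SD, n = 3 each), srz-85 (15.7 ± 2.46 and 21 ± 9.68), srw-85 (12.2 ± 3.14 and 20.6 ± 10.2) and srt-63 (11.6 ± 4.07 and 12.2 ± 1.18). The order among these 4 genes in dopamine neurons is within their spread. In dopamine neurons srx-45 (18 ± 2.88 FPKM) ranked 2 and srab-14 (14.3 ± 2.51) ranked 5, and in serotonin neurons they ranked 14 and 13, at 4.63 ± 3.47 and 5.01 ± 3.41 FPKM.

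**Figure D2:**
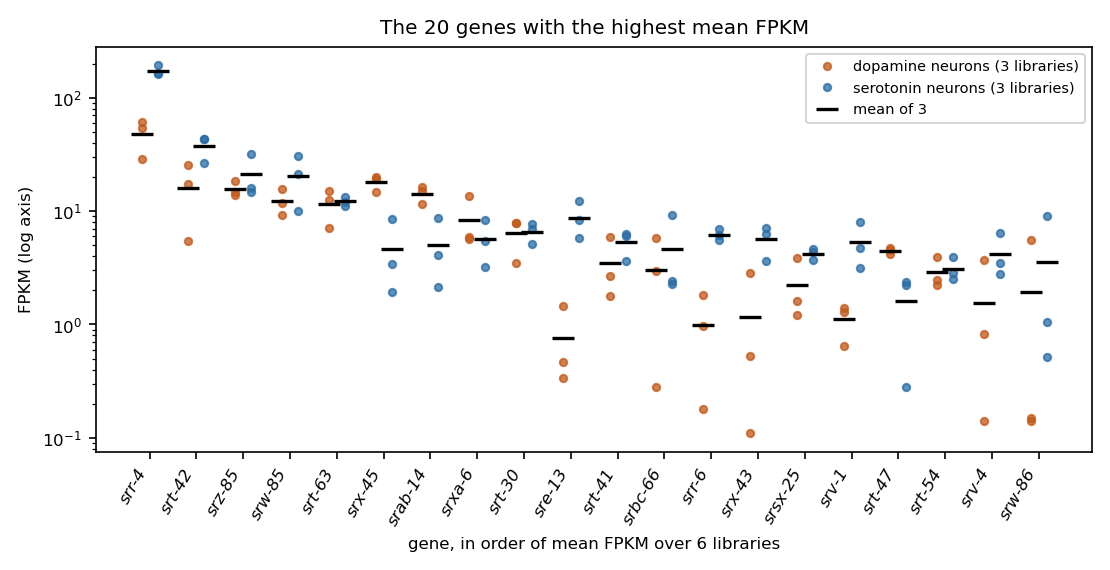
FPKM on a log axis of the 20 chemoreceptor genes with the highest mean over 6 libraries; each point is a library, orange for dopamine neurons on the left and blue for serotonin neurons on the right, and black bars are means of 3. The gene srr-4 lies above the others in both groups, and srx-45 and srab-14 have their dopamine points above their serotonin points.

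Dopamine and serotonin neurons were compared in a limma fit of log2(normalized count + 1) across the 15750 genes that met the same detection rule, with p-values adjusted over all of them; 9.52% of genes were called. Of the 135 receptor genes, 2 were higher in dopamine neurons, where 3.16% of genes tested were called in that direction. A further 16, or 11.9%, were lower in dopamine neurons, where 6.36% of genes tested were called. Of these 16 genes, 7 reached the level of 10 in serotonin libraries only. Such a gene entered through its high group and had to differ, so the 7 are described without a test. The other 9 are 7.5% of the 120 genes detected in both groups. With the replicate number as a block the same 2 genes were higher and 28 were lower, the 16 among them, where 6.78% and 11.7% of genes were called. Of these 28 genes, 10 were detected through serotonin libraries only, and the other 18 are 15% of the 120. The shares of all genes tested were not split in this way and include genes detected through 1 group only. Single libraries moved these counts. Receptor genes called lower numbered 33, 9 and 10 when dopamine 1, 2 or 3 was left out, and 5, 3 and 5 when serotonin 1, 2 or 3 was. Receptor genes called higher numbered 0 without dopamine 1 or 3, and 1 without serotonin 1 or 2. All genes called in either direction numbered 1686, 1444 and 917 without dopamine 1, 2 or 3. They numbered 1051, 953 and 1036 without serotonin 1, 2 or 3.

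The gene srx-45 (WBGene00005936, chromosome III, 9303859 to 9306696) had 486, 356 and 468 normalized counts in dopamine 1, 2 and 3, and 83.3, 207 and 46.6 in serotonin 1, 2 and 3. The groups did not overlap, and serotonin 2 was the highest of its group. The gene was 4.6-fold higher in dopamine neurons (log2 fold change 2.20, SE 0.50, limma adjusted p = 0.0155; alternatives spanned 0.00228 to 0.149). Leaving out dopamine 1 or 3 ended the call (limma adjusted p = 0.0505 and 0.068).

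The gene srab-14 (WBGene00019999, chromosome II, 7497284 to 7499490) had 466, 327 and 425 normalized counts in dopamine 1, 2 and 3, and 116, 61 and 249 in serotonin 1, 2 and 3. Here too the groups did not overlap, and serotonin 3 came nearest to the dopamine libraries. It was 3.3-fold higher in dopamine neurons (log2 fold change 1.72, SE 0.47, limma adjusted p = 0.0415; alternatives spanned 0.00409 to 0.239). Leaving out any 1 library but serotonin 3 ended the call (limma adjusted p = 0.0549 to 0.139). Of its 1273 exonic bases 490 lie opposite exons of spi-1, which measured 1.63 to 29.6 normalized counts in dopamine and 11 to 27 in serotonin libraries, and the strands cannot be told apart without knowing how reads were counted. Scaling to pan-neuronal genes shifted the median log2 fold change of all genes tested to -0.90, where it was -0.07 with the deposited scaling; srx-45 then stood at 1.35 and srab-14 at 0.87, and neither passed.

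Another gene had its dopamine libraries above its serotonin libraries. It was srt-47, named after its values were seen, with 100.05, 92.1 and 103 normalized counts in dopamine 1, 2 and 3, and 48.8, 52 and 6.14 in serotonin 1, 2 and 3, and it did not pass (log2 fold change 1.90, SE 0.76, limma adjusted p = 0.16). These 3 of 135 genes stand beside 12.3% of all genes tested with such a gap. In the opposite direction 35 of the 135 genes, or 25.9%, had their serotonin libraries above their dopamine libraries, beside 15.1% of all genes tested. The 15 genes detected through serotonin libraries only could not overlap, and without them 20 of 120, or 16.7%, had this gap. The 15.1% of all genes tested still includes genes detected through 1 group only, so these shares are not on like sets. For the other 97 genes the groups overlapped.

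Among the genes lower in dopamine neurons, the srr family gave the most abundant. The gene srr-4 had 1992, 1754 and 932 normalized counts in dopamine 1, 2 and 3, and 6241, 5256 and 5366 in serotonin 1, 2 and 3. The lowest serotonin library held more than the highest dopamine library by a wide margin. The gene was 3.78-fold lower in dopamine neurons (log2 fold change -1.92, SE 0.30, limma adjusted p = 0.00161), and it passed in each of the 21 alternatives (adjusted p up to 0.0187).

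Close to it on chromosome V, srr-6 (WBGene00005657, chromosome V, 5012803 to 5015219) had 30.2, 56.1 and 5.43 normalized counts in dopamine 1, 2 and 3, and 171, 214 and 190.3 in serotonin 1, 2 and 3. The serotonin libraries were close to each other and the dopamine libraries spread widely, without overlap. It was 8.53-fold lower in dopamine neurons (log2 fold change -3.09, SE 0.73, limma adjusted p = 0.02; alternatives spanned 0.00207 to 0.101). Leaving out serotonin 2 or 3 ended the call (limma adjusted p = 0.0742 and 0.0726). The other 4 detected srr genes did not pass.

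In the sre family, sre-13 (WBGene00007997, chromosome II, 14634567 to 14636837) had 11.5, 8.17 and 35.6 normalized counts in dopamine 1, 2 and 3, and 202, 139.98 and 295 in serotonin 1, 2 and 3. The groups lay far apart. It was 12.6-fold lower in dopamine neurons (log2 fold change -3.66, SE 0.64, limma adjusted p = 0.00347), and it passed without any 1 library. The call was lost without the 2 libraries richest in ribosomal RNA and without both libraries numbered 1 (limma adjusted p = 0.0595 and 0.0597; alternatives spanned 5.89e-07 to 0.0597). Its relative sre-1, known from the ADL nociceptor, had 53.1, 13.1 and 40.4 in dopamine and 31.8, 34 and 14.7 in serotonin libraries, which overlap (log2 fold change 0.27, SE 0.76, limma adjusted p = 0.873).

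Within the srv family, srv-1 (WBGene00005712, chromosome III, 6850385 to 6853203) had 33.4, 16.9 and 36.2 normalized counts in dopamine 1, 2 and 3, and 209, 124 and 82.2 in serotonin 1, 2 and 3. It was 4.58-fold lower in dopamine neurons, without overlap (log2 fold change -2.20, SE 0.57, limma adjusted p = 0.0324; alternatives spanned 0.00157 to 0.195). Leaving out dopamine 2 or 3 or serotonin 1 or 2 ended the call (limma adjusted p = 0.054 to 0.175). Of its 1352 exonic bases 103 lie opposite zak-1, a gene at 566 to 595 normalized counts in dopamine and 1002 to 1340 in serotonin libraries, so the srv-1 count is uncertain.

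The gene srx-12 (WBGene00005903, chromosome IV, 1045983 to 1049506) had 45.9, 3.27 and 2.41 normalized counts in dopamine 1, 2 and 3, and 95.9, 102 and 173 in serotonin 1, 2 and 3. Dopamine 1 stood well above dopamine 2 and 3 but below the serotonin libraries (log2 fold change -3.77, SE 0.95, limma adjusted p = 0.0274; alternatives spanned 0.00242 to 0.148). Leaving out any 1 library but dopamine 1 ended the call (limma adjusted p = 0.0517 to 0.117).

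The gene srsx-6 (WBGene00022405, chromosome V, 7927084 to 7928451) had 14.6, 0.54 and 0 normalized counts in dopamine 1, 2 and 3, and 104.2, 81.5 and 81 in serotonin 1, 2 and 3. It was nearly absent from dopamine 2 and 3 and even across the serotonin libraries. It was 30.9-fold lower in dopamine neurons on the fitted log2 scale, with means of 5.04 in dopamine and 88.9 in serotonin libraries (log2 fold change -4.95, SE 1.07, limma adjusted p = 0.0123; alternatives spanned 0.00153 to 0.0925). Leaving out any 1 serotonin library ended the call (limma adjusted p = 0.0555 to 0.0618). The relative srsx-17 had 6.25, 0 and 28.4 in dopamine and 72.3, 61.5 and 131 in serotonin libraries, at the edge of the threshold (log2 fold change -3.83, SE 1.10, limma adjusted p = 0.0497; alternatives spanned 0.00534 to 0.22). Without any 1 library but dopamine 3 it was not called (limma adjusted p = 0.0669 to 0.178).

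The neighbours srt-62 (WBGene00020857, chromosome I, 10899089 to 10902220) and srt-61 (WBGene00020856, chromosome I, 10904370 to 10906766) were both lower in dopamine neurons. The gene srt-62 had 18.8, 2.72 and 0 normalized counts in dopamine 1, 2 and 3, and 151, 109 and 23.3 in serotonin 1, 2 and 3. The gene srt-61 had 21.9, 0 and 7.84 in dopamine 1, 2 and 3, and 143, 94 and 45.4 in serotonin 1, 2 and 3. In both genes library 1 was the highest of its group and the groups did not overlap. Both were close to the threshold (log2 fold change -4.15 and -3.87, limma adjusted p = 0.0438 and 0.0443; alternatives spanned 0.00249 to 0.187 and 0.00723 to 0.16). Leaving out dopamine 2 or 3 or serotonin 1 or 2 ended the call of srt-62 (limma adjusted p = 0.0733 to 0.187). That of srt-61 ended without any 1 library but dopamine 1 (0.0543 to 0.16).

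**Figure D3:**
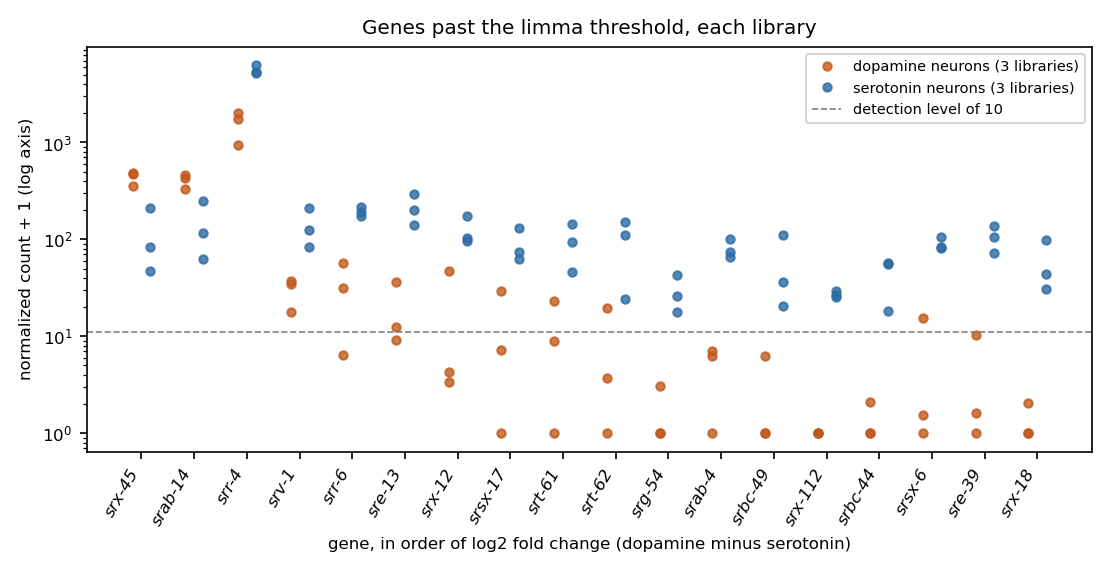
Normalized count + 1 on a log axis for the 18 chemoreceptor genes past the limma threshold, 1 point per library, dopamine libraries (orange) left of serotonin libraries (blue), with the detection level of 10 as a dashed line. In srx-45 and srab-14 the dopamine points lie higher, and in the other 16 genes lower.

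The 7 genes that passed and reached 10 in serotonin libraries only were sre-39, srab-4, srbc-49, srbc-44, srx-18, srx-112 and srg-54. The gene sre-39 had 9.38, 0 and 0.6 normalized counts in dopamine 1, 2 and 3, and 105, 72 and 136 in serotonin 1, 2 and 3. The gene srab-4 had 5.21, 0 and 6.03 in dopamine and 100.6, 65.5 and 72.4 in serotonin libraries. The gene srbc-49 had 5.21, 0 and 0 in dopamine and 109, 35.5 and 19.6 in serotonin libraries. These 3 genes were at a few reads in dopamine libraries, and srbc-49 was highest in serotonin 1.

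The others had hardly a read in dopamine neurons. The gene srx-112 had no read in any dopamine library and 28.3, 25.5 and 24.6 normalized counts in serotonin 1, 2 and 3, so it was at least 11.9-fold lower in dopamine neurons, with the floor set at 3 reads in each dopamine library. For srx-18, 1 read in all was recovered from dopamine libraries and 241 from serotonin libraries, where it measured 29.5, 43 and 98.2 normalized counts. The level ratio of serotonin to dopamine was 200.2, with an exact 95% interval of 35.6 to 7941. For srbc-44 the reads were 2 in dopamine and 266 in serotonin libraries, a ratio of 110.5 (30.3 to 917). For srg-54 they were 2 in dopamine and 127 in serotonin libraries, a ratio of 52.8 (14.3 to 440.3). Such intervals cover counting error between these libraries, not the spread between replicates, and they test nothing, since these genes were chosen through their high group.

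Several abundant genes did not pass the test. The gene srt-42 had 677, 465 and 145 normalized counts in dopamine 1, 2 and 3, and 1145, 1148 and 707 in serotonin 1, 2 and 3. The groups are separated by the small gap between dopamine 1 and serotonin 3 (log2 fold change -1.44, SE 0.49, limma adjusted p = 0.0934). It passed with the replicate block (adjusted p = 0.0027; alternatives spanned 0.0027 to 0.27).

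The groups overlapped for the next 5. The gene srz-85 had 336, 351 and 445 normalized counts in dopamine and 387, 356 and 773 in serotonin libraries (log2 fold change -0.34, SE 0.35, limma adjusted p = 0.613). In turn, srw-85 had 362, 475 and 284 in dopamine and 930.5, 650.4 and 308 in serotonin libraries (log2 fold change -0.64, SE 0.40, limma adjusted p = 0.387). For srt-63, srt-30 and srxa-6 the log2 fold changes were -0.13, -0.12 and 0.54 with SEs of 0.35, 0.44 and 0.49. Of the 12 genes with a mean of 100 or more normalized counts, 2 were higher and 3 lower in dopamine neurons. Over all genes tested, 3.16% were called higher and 6.36% lower, and the shares at that level were not taken. Of the 3, sre-13 and srr-6 had dopamine means of 18.4 and 30.6. They reached 100 through their serotonin values, so the count tests nothing. Of the genes with the highest FPKM in their family, srsx-25 had 25, 80.1 and 33.8 in dopamine and 77, 96 and 90.8 in serotonin libraries and was not called, and neither were srg-45 and sru-13 (log2 fold change -1.08, -1.39 and -1.77).

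Receptors with a known role in C. elegans stood below the median of protein-coding genes tested, 5.63 FPKM, where they were detected. The highest, srbc-66 and srx-43, had a mean FPKM of 3.82 and 3.43, above the median of the 135 genes, 0.935. Of 17 receptors with a known role, 10 were detected, and 0 passed by limma, edgeR or DESeq2. Of the 9 detected in both groups, 3 were lower in dopamine neurons at an unadjusted limma p under 0.05, beside 14% of all genes tested, and 2 were with the replicate block, beside 11.7%. Both shares of all genes include genes detected through 1 group only. The gene srbc-66 encodes a pheromone receptor of the ASK neurons and had 113, 5.45 and 56.7 normalized counts in dopamine 1, 2 and 3, and 177, 46.5 and 44.2 in serotonin 1, 2 and 3. The overlap was wide (log2 fold change -1.06, SE 0.98, limma adjusted p = 0.569). Its partner in pheromone sensing, srbc-64, had at most 4.17 in any library.

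The gene srx-43 encodes a receptor of the ASI neurons for an ascaroside that alters foraging. It had 61.5, 11.4 and 2.41 normalized counts in dopamine 1, 2 and 3, and 153, 135 and 78.6 in serotonin 1, 2 and 3. The groups did not overlap, but the dopamine libraries were far from each other. It did not pass (log2 fold change -3.10, SE 0.92, limma adjusted p = 0.0587) but the replicate block called it (adjusted p = 0.00605; alternatives spanned 0.00605 to 0.216). The adjacent srx-44 had 18.8, 13.1 and 0 in dopamine and 43.6, 17.5 and 23.3 in serotonin libraries.

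The gene srb-6 encodes a receptor of the ASH and ADL nociceptors and of phasmid neurons that mediates avoidance of dodecanoic acid. It had 8.34, 0 and 0 normalized counts in dopamine 1, 2 and 3, and 37.4, 13.5 and 25.8 in serotonin 1, 2 and 3, and was thus detected through the serotonin libraries and is given without a test. The gene srb-16 had 17.7, 5.45 and 4.22 in dopamine and 44.4, 24 and 74.9 in serotonin libraries (log2 fold change -2.37, SE 0.85, limma adjusted p = 0.114). Another ASH gene, srx-97, linked to avoidance of benzaldehyde, had 10.4, 0 and 0 in dopamine and 45.6, 13.5 and 4.91 in serotonin libraries.

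The gene srsx-3, a marker of an AWC olfactory neuron, had 26.1, 1.63 and 0.6 normalized counts in dopamine 1, 2 and 3, and 72.7, 20.5 and 22.1 in serotonin 1, 2 and 3. Dopamine 1 lay within the serotonin values (log2 fold change -2.78, SE 1.18, limma adjusted p = 0.189). With the replicate block it was called (adjusted p = 0.0478; alternatives spanned 0.0347 to 0.522). The gene srg-36, for an ascaroside receptor of ASI, had 13.6, 4.9 and 1.21 in dopamine and 6.29, 19 and 27 in serotonin libraries, and its paralog srg-37 had at most 7 in any library. The values of srg-34 were 11.5, 0 and 1.81 in dopamine and 38.1, 14 and 6.14 in serotonin libraries. The ASH gene sra-6 was not detected by the rule, at 5.21, 0 and 0 in dopamine and 15.3, 34.5 and 2.46 in serotonin libraries.

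By family, most detected genes had a negative log2 fold change, that is, a lower value in dopamine neurons. These were 23 of 29 Sra genes, 52 of 65 Srg genes and 38 of 41 solo genes, and the superfamily medians were -1.76, -1.43 and -1.47. Over the 135 genes the median was -1.47, or -1.39 over the 120 detected in both groups, and 83.7% lay below 0, beside a median of -0.07 and 53% over all genes tested. Low genes lean the same way in these tables. Of the 5790 genes tested with a mean under 50 normalized counts, 67.9% lay below 0 with a median of -0.60, and of the 105 receptors under that level 85.7% did with a median of -1.68. Since detection could be reached through serotonin libraries alone, these shares describe the detected genes and test nothing. The srg genes were below 0 for 12 of 12 and the srw genes for 9 of 9, while sru and srxa had 2 of 4 each.

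**Figure D4:**
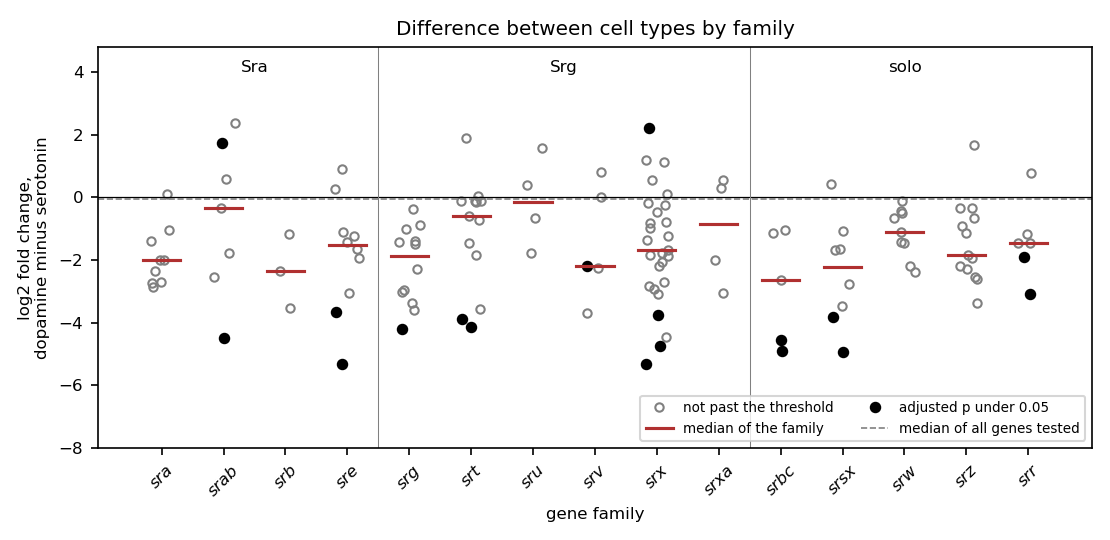
Log2 fold change (dopamine minus serotonin) of each of the 135 chemoreceptor genes by family; filled points passed the limma threshold, open points did not, red bars are family medians and the dashed line is the median of all genes tested, -0.07. Most points lie below 0 in the Sra, Srg and solo groups, whose medians are -1.76, -1.43 and -1.47.

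The libraries numbered 1 stood apart in both cell types. Dopamine 1 was the highest dopamine library for 89 of the 135 genes, or 65.9%, and serotonin 1 the highest serotonin library for 81, or 60%. Over all genes tested these shares were 31.6% and 32.7%, and over the genes tested with a mean under 50 they were 49% and 48.2%. Both were the highest of their group for 60 genes. Of the 135 genes, 50 reached 10 in dopamine 1 but in neither dopamine 2 nor dopamine 3. The median gene had 20.8, 4.36 and 3.62 normalized counts in dopamine 1, 2 and 3, and 38.9, 26 and 16 in serotonin 1, 2 and 3. The labels do not say whether a shared number stands for a shared batch. Without both libraries numbered 1, 0 genes were called higher and 6 lower in dopamine neurons.

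Some of the genes lie beside each other. Of the 135, 68 are on chromosome V, 23 on IV, 20 on II, 15 on I, 6 on III and 3 on X. Detection was 14.8% of the 460 family genes on chromosome V and 71.4% of the 21 on chromosome I. With genes joined when less than 10 kb apart, 54 of the 135 fell into 20 clusters and 81 stood alone.

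The largest cluster was on chromosome I (12686116 to 12706983), where 8 of 8 family genes, sra-25, sra-17, sra-18 and sra-20 to sra-24, were detected. Their summed level was 385, 35.4 and 27.8 normalized counts in dopamine 1, 2 and 3, and 928, 302 and 115.4 in serotonin 1, 2 and 3. Dopamine 1 lay above serotonin 2 and 3 and far above dopamine 2 and 3, so the groups overlap in this sum. Within the cluster sra-22 had 65.7, 12 and 1.21 in dopamine and 129.7, 48 and 18.4 in serotonin libraries, and each of the 8 genes was highest in library 1 of its group. By limma 0 of the 8 passed (log2 fold change -2.85 to -1.05), with 1 at an unadjusted p under 0.05, while sra-23 and sra-24 passed with the replicate block (adjusted p = 0.0401 and 0.0278).

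A cluster of 5 srz genes on chromosome IV (3477392 to 3506115) summed to 147, 48.5 and 9.66 in dopamine 1, 2 and 3, and to 298, 108 and 35.6 in serotonin 1, 2 and 3, again highest in library 1 of each group. The genes srt-30, srw-7 and srw-6 on chromosome V (3797928 to 3810708) summed to 320, 140.6 and 278 in dopamine and 272, 268 and 237 in serotonin libraries, with overlap. The cluster of srsx-7, srsx-6, srsx-3 and srt-53 on chromosome V summed to 75.03, 37.6 and 16.3 in dopamine and 278, 129 and 182 in serotonin libraries, without overlap. Reads that match several neighbours equally may be lost or shared between them, and sequence likeness was not measured here.

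**Figure D5:**
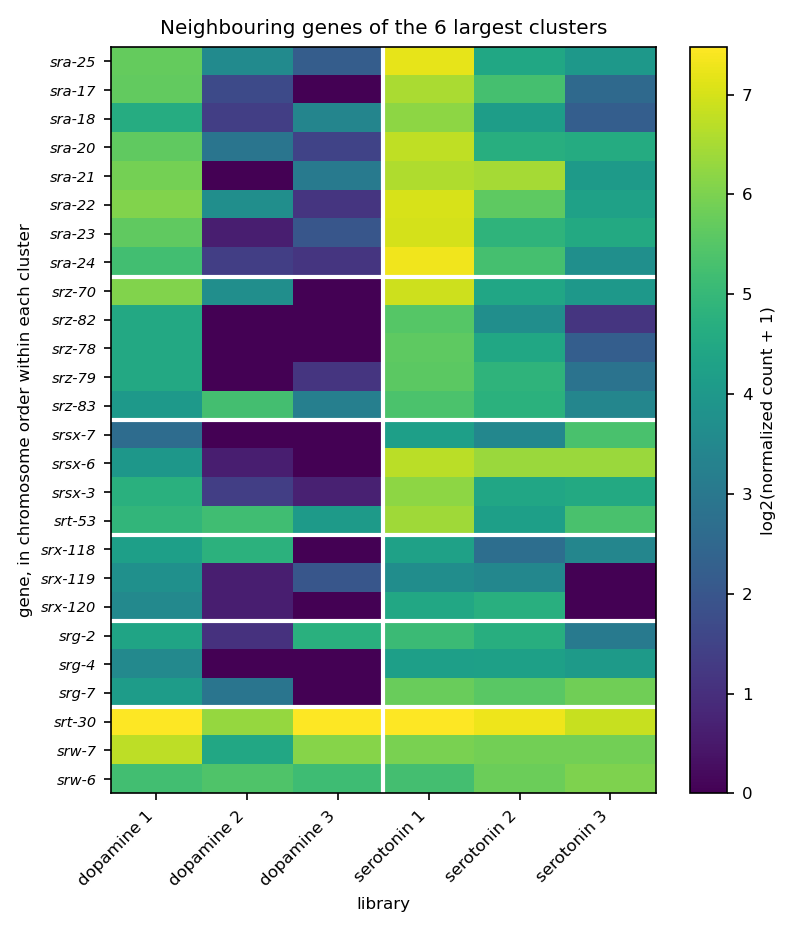
Log2(normalized count + 1) of the genes in the 6 largest clusters, in chromosome order within each cluster, by library; dopamine libraries are left of the white line and serotonin libraries right of it. The 8 sra genes at the top are bright in dopamine 1 and serotonin 1 and dark in dopamine 2 and 3, and srt-30 is bright throughout.

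Part of the pathway that carries a chemoreceptor's signal was lower in dopamine neurons. Of 25 tested genes for G proteins, guanylate cyclases, channels and a kinase of chemosensory transduction, 12 were lower in dopamine neurons by limma and 0 higher (2 at an unadjusted p under 0.05, and 0 by edgeR and 1 by DESeq2 after adjustment), where 6.36% of all genes were called lower, with a median log2 fold change of -1.79 beside -0.07 over all genes tested. With the replicate block 14 were lower and 2 higher, where 11.7% and 6.78% of all genes tested were called. Among the genes called lower in both fits, gpa-15 reached 10 in serotonin libraries only. It had 6.25, 9.26 and 5.43 normalized counts in dopamine and 67.6, 64.5 and 149.8 in serotonin libraries. That gene entered through its high group and had to differ, so its call tests nothing. The G beta genes gpb-1 and gpb-2, the G gamma gene gpc-2 and the channel gene osm-9 were among those that did not pass. The G alpha genes gpa-13 and gpa-10 had the most negative values (-4.22 and -4.18), followed by the G gamma gene gpc-1 (-3.92). The gene gpc-1 had 101.1, 288 and 109 normalized counts in dopamine 1, 2 and 3, and 2359, 1955 and 2436 in serotonin 1, 2 and 3 (log2 fold change -3.92, SE 0.39, limma adjusted p = 6.19e-05), with the groups far apart.

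Of 10 genes for receptor trafficking and ciliary transport, 5 were lower in dopamine neurons, where 6.36% of all genes tested were called lower. The list median was -1.12. Without dopamine 2 or serotonin 3 the count was 3, where 1444 and 1036 of the 15750 genes tested were called in either direction. The dynein gene che-3 (-2.62), the Tubby homolog tub-1 (-2.13), and odr-8, which acts with odr-4 in the maturation of odorant receptors (-1.71), had the most negative values. Of 7 genes for receptor desensitization, rgs-3, a regulator of G protein signalling in sensory neurons, was lower in dopamine neurons (-2.41, limma adjusted p = 0.00925), and the others did not pass. The list's median was 0.47. With the replicate block 2 of the 7 were lower and 2 higher, where 11.7% and 6.78% of all genes tested were called. Without serotonin 2 a total of 2 were lower, and without serotonin 3 a total of 1 was higher. In those fits 953 and 1036 of the 15750 genes tested were called in either direction. The transduction genes gpa-13, gpa-11 and ocr-2 are also among the nociceptor markers given above. Likewise gpa-4 and gpa-9 are among the ASI, ASJ and ASK markers.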

How the data were processed

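RNA-seq was measured in 3 dopamine and 3 serotonin libraries. Per the labels, RNA was isolated with PicoPure and amplified with the Ovation system. STAR, HTSeq and DESeq2 are listed in the submitters' processing notes, with no roles. The sources used here do not give the genome build or strandedness. Deposited were normalized counts (a signal: read counts over a size factor of each library) and FPKM values. Every value above 0 was a whole multiple of a library's step within a tolerance of 0.02 (100%), which gave back reads. Genes were matched by identifier to the WBcel235 annotation, Ensembl release 115 (46407 of 47063). limma 3.58.1 (trend, robust; R 4.3.3) was fitted on log2(normalized count + 1) for 15750 genes, with Benjamini and Hochberg adjustment and a threshold of 0.05; folds are on that scale, where a larger pseudocount makes those of low genes smaller, and differ from ratios of mean counts. The count test on recovered reads, by edgeR 4.0.16, called 1164 genes. Other alternatives were pseudocounts, filters, scalings, FPKM with the same library scaling, DESeq2 1.42.0, a replicate block, array weights and left-out libraries. The fit was also tested on simulated data without an effect of replicate number, with changed genes placed only at a mean of 50 or more. That check does not cover differences in the 105 receptor genes with a mean under 50. Same-numbered libraries deviated together (r = 0.433, 0.173 and 0.28 across genes for numbers 1, 2 and 3), which comes from the data, not the labels. The main fit did not pair them. Pairing by number entered only the replicate block alternatives. Intervals cover counting error only. Members and lists were chosen with earlier results of these data known. The text names genes past the threshold, those highest by FPKM overall and per family, those with known roles, those at the edge of the rule, and list genes with the most extreme fold changes.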

Additional observations from a re-analysis of the deposited data

How the results depend on the processing

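The count of receptor genes higher in dopamine neurons, 2 as reported, was 0 with pan-neuronal scaling, 0 by edgeR, 1 on FPKM, 1 without the 2 libraries richest in ribosomal RNA, 0 without both libraries numbered 1 and 0 to 2 without 1 library. The count lower in dopamine neurons, 16, was 30 with pan-neuronal scaling, 8 by edgeR, 28 with the replicate block, 8 with a filter of 50, 6 without both libraries numbered 1 and 3 to 33 without 1 library. All genes called, 1500, became 3012 with pan-neuronal scaling, 2910 with the replicate block, 674 without both libraries numbered 1 and 917 to 1686 without 1 library. Some uncalled genes changed sign (log2 fold change). With quantile normalization srt-30 stood at 0.0146 and srx-119 at 1.02, and with pan-neuronal scaling sre-1 at -0.56 and srxa-6 at -0.31. Without the 2 libraries richest in ribosomal RNA sre-1 stood at -0.49, srt-63 at 0.25 and srz-85 at 0.0894, and without both libraries numbered 1 srt-63 at 0.18. Without 1 library the ranges were -1.91 to 0.16 for srbc-66, -0.12 to 0.85 for sre-1, -0.32 to 0.27 for srt-30, -0.35 to 0.18 for srt-63, -1.44 to 0.50 for srx-119 and -0.55 to 0.0111 for srz-85. Leaving out both libraries numbered 1, and edgeR with the block, were chosen after seeing the data. The cause of these changes was not tested. Of the 135 genes 105 had a mean under 50 normalized counts, and the difference detectable at that depth was not measured.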
